A study of Mus musculus with 8 samples.

Results

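Collagens are the main fibrous proteins of the extracellular matrix. Each molecule is built from alpha chains wound into a helix, and each chain is encoded by its own gene. In the eye, fibrillar collagens form the sclera, the corneal stroma and the vitreous fibrils, type IV collagen forms the basement membranes of retinal vessels, of the inner limiting membrane and of the lens capsule, and other collagens link these structures to each other and to cells. The collagen genes described here were all genes whose single annotated symbol on the array reads Col, a number, a, and a number. They were 42 of the 18193 genes with a probe set of their own, and 82 of 45037 probe sets. Col28a1 and Col6a6 had no probe set of their own. Of the 42 genes, 11 encode fibrillar chains, 6 type IV chains, 5 type VI chains, 9 fibril-associated chains (called FACIT), 3 chains of hexagonal networks, 4 transmembrane chains and 2 multiplexins. Col7a1, which forms anchoring fibrils, and Col26a1 stand alone.

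Whole retinas of C57BL/6J mice aged 80 to 120 days were measured on Affymetrix whole-genome mouse expression arrays, with 2 arrays at each of 4 times, 0 (control), 3, 7 and 14 days in 75% oxygen. All mice, controls included, were raised in dim cyclic light, and no group carried a transgene. The question was how gene expression in the retina differs over an exposure long enough to damage photoreceptors. The methods describe retinas of both sexes pooled at each time, and do not state if each array had a pool of its own. The p-values therefore measure only the spread between arrays, which may be technical. The values are log2 RMA values (background-corrected, quantile-normalized and summarised per probe set), each centred on the median of its probe set over the 8 arrays. A value of 0 is therefore the middle of a gene's own range, a difference of 1 is 2-fold, and values show neither how strongly a gene was expressed nor whether it was expressed at all. In whole tissue, fewer cells of a type and less RNA per cell cannot be told apart.

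The arrays were not alike in other respects. Their medians over all genes lay between -0.03 and 0.06. The difference between the 3′ and 5′ control probe sets of Gapdh was 1.19 on day 3 replicate 2 and 1.43 on day 14 replicate 2, against -0.32 to 0.12 on the other 6 arrays. In the quality measures that accompany the study's methods, raised Gapdh ratios belong to both arrays of the longest exposure and to no other, so that an array labelled with a shorter exposure stands against them here. Arrays are called by their GEO labels throughout, and any exchange of labels was not tested. Values without day 3 replicate 2 or a day 14 array are given beside some of the results that move. Collagen differences between day 14 and the other exposed times are given with all arrays only. The median of 19 measured lens genes (crystallins and other lens proteins) ran from -1.54 to 3.30 over the arrays, and that of 11 rod photoreceptor genes from -0.42 to 0.10. Because the values are centred, no marker could be read as absent, and the labelled tissue could not be checked by level.

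No collagen gene passed an adjusted p of 0.05 in any of the 6 comparisons between times (limma, Benjamini-Hochberg over all 18193 genes), and no other gene on the array did (0.0% called in each). The collagen genes nevertheless spread widely between arrays. The highest and the lowest array differed by 1 or more on the log2 scale for 16 of the 42 genes (38.1%), against 16.8% of all genes, and the median of that range was 0.70 in collagen genes and 0.57 in all genes. Widest were Col4a1 with a range of 3.00, Col8a1 with 2.37, Col8a2 with 2.20 and Col4a2 with 2.05. Narrowest was Col12a1, a fibril-associated chain, at 0.14. The array labelled day 3 replicate 1 held the lowest value of 16 collagen genes (21.4% of all genes had their lowest value there), day 7 replicate 1 the highest of 11 (6.38% of all genes) and day 14 replicate 2 the highest of 14 (24.4% of all genes).

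**Figure D1:**
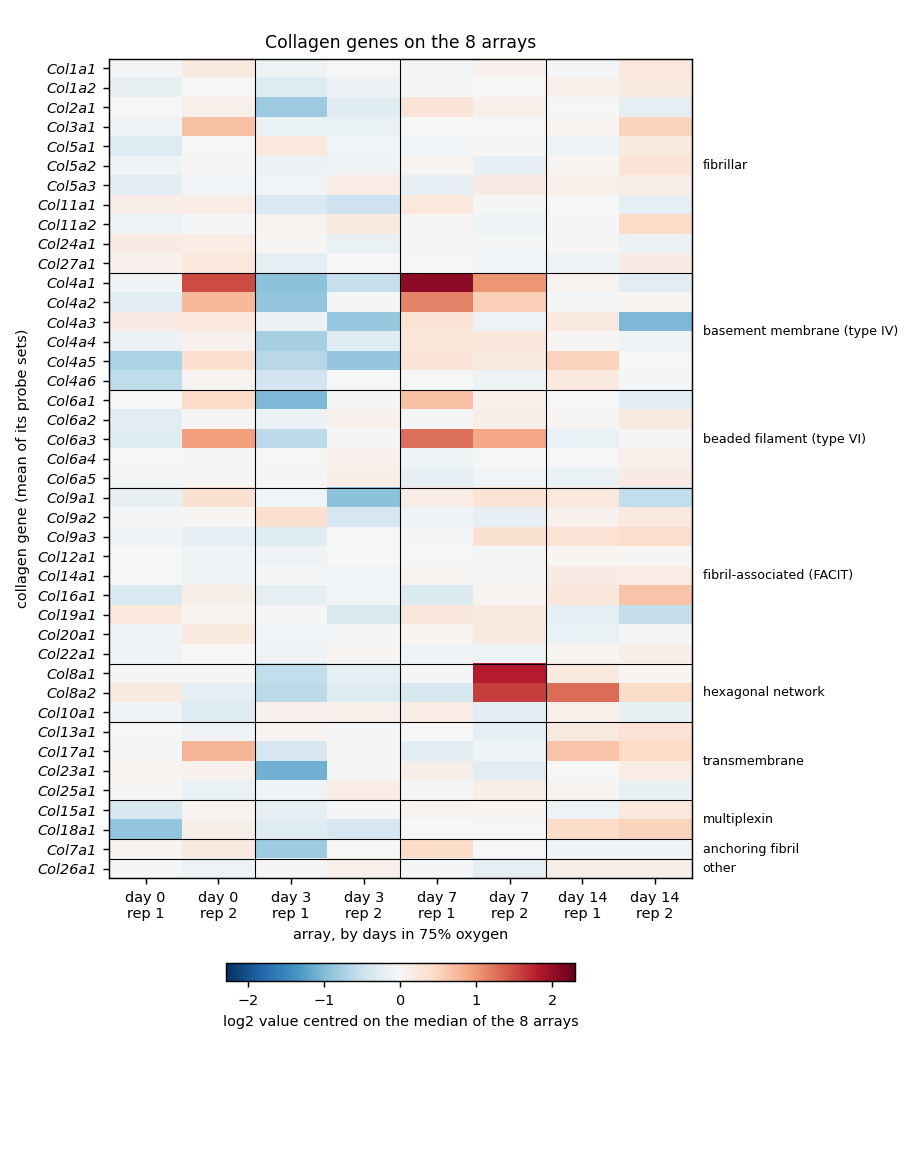
Centred log2 values of the 42 collagen genes (rows, grouped by collagen type) on the 8 arrays (columns, by days in 75% oxygen and replicate), with red above and blue below the median of each gene over the arrays. Col4a1 reaches 2.06 on day 7 replicate 1, and Col8a1 and Col8a2 reach 1.80 and 1.58 on day 7 replicate 2.

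Type IV collagen held the widest differences. Col4a1 and Col4a2 encode the chains of the collagen IV found in nearly all basement membranes, vessels included. Their genes lie head to head on chromosome 8 (GRCm38.p6), Col4a1 at chr8:11198423-11312889 and Col4a2 at chr8:11312805-11449287. The annotated starts used for their promoter windows, 11312826 and 11312805, are 21 bases apart and need not be the ends of these spans. Col4a5 and Col4a6, whose chains occur in more restricted basement membranes, lie head to head on chromosome X at chrX:141475370-141689236 and chrX:141165403-141474095. Their starts used in the same way, 141475419 and 141474076, are 1343 bases apart. The RefSeq promoter windows of these 4 genes cover 250 bases before to 50 after the start, read 5′ to 3′ on each gene's strand. They are shown because the genes of each pair face each other and had the same 3 highest arrays. Col4a3 and Col4a4 also adjoin each other, at chr1:82586921-82722059 and chr1:82448419-82587034, but their 3 highest arrays were not the same. No promoter windows were available for them. Capitals mark GC boxes (GGGCGG, or CCGCCC on the other strand) and CCAAT boxes (CCAAT, or ATTGG on the other strand). No pair of marked motifs overlapped within a window.
Col4a1: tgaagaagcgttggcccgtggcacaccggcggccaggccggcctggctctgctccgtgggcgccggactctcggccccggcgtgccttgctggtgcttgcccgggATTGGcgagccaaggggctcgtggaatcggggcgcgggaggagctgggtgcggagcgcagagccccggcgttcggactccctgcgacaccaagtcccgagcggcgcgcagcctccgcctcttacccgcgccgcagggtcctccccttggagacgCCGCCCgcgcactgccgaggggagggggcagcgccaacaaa
Col4a2: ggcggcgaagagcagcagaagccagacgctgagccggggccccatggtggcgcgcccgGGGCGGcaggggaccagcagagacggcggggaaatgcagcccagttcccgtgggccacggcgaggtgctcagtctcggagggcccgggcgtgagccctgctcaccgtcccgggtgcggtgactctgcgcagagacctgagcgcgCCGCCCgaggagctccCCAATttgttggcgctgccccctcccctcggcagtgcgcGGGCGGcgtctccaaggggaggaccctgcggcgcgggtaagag
Col4a5: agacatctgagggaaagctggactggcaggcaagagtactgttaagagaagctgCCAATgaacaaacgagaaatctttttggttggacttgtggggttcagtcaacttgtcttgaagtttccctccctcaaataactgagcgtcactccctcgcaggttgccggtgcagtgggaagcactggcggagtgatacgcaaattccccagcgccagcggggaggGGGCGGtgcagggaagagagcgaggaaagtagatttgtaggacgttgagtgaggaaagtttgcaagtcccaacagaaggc
Col4a6: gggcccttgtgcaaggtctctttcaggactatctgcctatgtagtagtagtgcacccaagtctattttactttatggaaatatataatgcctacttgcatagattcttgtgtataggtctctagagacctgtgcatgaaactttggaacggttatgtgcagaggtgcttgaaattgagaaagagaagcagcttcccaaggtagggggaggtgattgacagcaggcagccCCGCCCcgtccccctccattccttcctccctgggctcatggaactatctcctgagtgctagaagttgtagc

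The Col4a1 window covers chr8:11312777-11313076 on the minus strand and that of Col4a2 chr8:11312555-11312854 on the plus strand, and they share 78 bases. The windows of Col4a5 (chrX:141475169-141475468, plus strand) and Col4a6 (chrX:141474027-141474326, minus strand) share 0. A GC box occurred once in the Col4a1, Col4a5 and Col4a6 windows and 3 times in the Col4a2 window. The Col4a1 match and the last Col4a2 match are the same stretch of the shared bases, read on opposite strands. A CCAAT box occurred once in each window but that of Col4a6. Over all 32851 windows of this length, 35.7% held a GC box and 37.4% a CCAAT box. Of 36 windows that matched 33 collagen genes, 22 held a GC box and 13 a CCAAT box. These are matches of letters and not shown to be sites.

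Col4a1 was at -0.08 and 1.51 on the day 0 arrays, -0.94 and -0.53 on day 3, 2.06 and 1.02 on day 7, and 0.07 and -0.25 on day 14. Col4a2 was at -0.24 and 0.74 on day 0, -0.90 and -0.05 on day 3, 1.15 and 0.55 on day 7, and -0.05 and 0.05 on day 14. For both genes the 3 highest arrays were day 7 replicate 1, day 0 replicate 2 and day 7 replicate 2, in that order, and day 3 replicate 1 was lowest. In both genes the control arrays stood far apart and the day 7 values surrounded the higher control. Both day 3 values of Col4a1 lay below both controls, and those of Col4a2 overlapped them.

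Col4a3, Col4a4 and Col4a5 make the network of the kidney filter and of some ocular basement membranes. Col4a3 was at 0.20 and 0.25 on day 0, -0.14 and -0.87 on day 3, 0.32 and -0.11 on day 7, and 0.23 and -1.03 on day 14. Its low values were on day 3 replicate 2 and day 14 replicate 2, the arrays with the large 3′ to 5′ differences, whose part in this was not tested. Col4a4 was at -0.13 and 0.09 on day 0, -0.76 and -0.28 on day 3, 0.28 and 0.27 on day 7, and 0.03 and -0.12 on day 14. Col4a4 thus lay above both controls on both day 7 arrays and below both on the day 3 arrays.

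Col4a5 was at -0.73 and 0.39 on day 0, -0.63 and -0.89 on day 3, 0.30 and 0.21 on day 7, and 0.53 and 0.00 on day 14. Col4a6 was at -0.58 and 0.07 on day 0, -0.44 and -0.00 on day 3, 0.00 and -0.11 on day 7, and 0.23 and -0.03 on day 14. For both genes the 3 highest arrays were day 14 replicate 1, day 0 replicate 2 and day 7 replicate 1, in that order. In Col4a6 the last of these, at 0.0015, stood beside -0.0015 on day 3 replicate 2. The day 0 arrays of both genes spanned most of the range. Neither lay clear of the controls at any time.

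**Figure D2:**
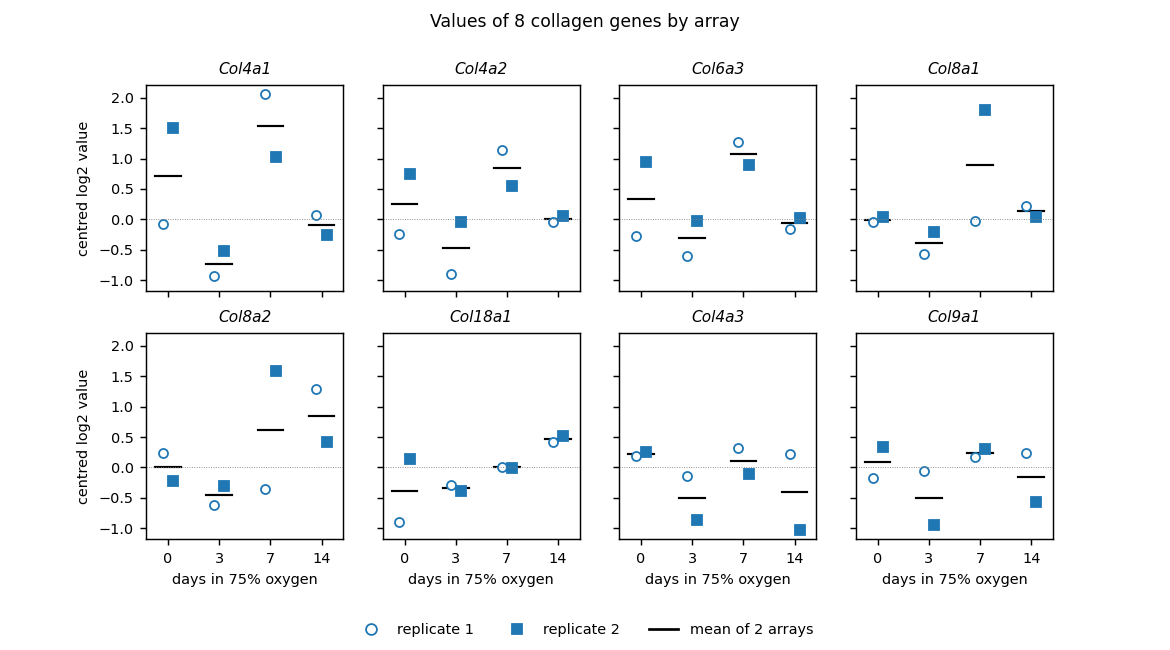
Centred log2 values (vertical axis) of 8 collagen genes by days in 75% oxygen (horizontal axis), with open circles for replicate 1, filled squares for replicate 2 and bars for the mean of 2 arrays. Col4a1 and Col4a2 show the same order of times, with day 3 lowest and day 7 highest, and Col8a1 stands high on 1 array of day 7 only.

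After 3 days in oxygen, more collagen genes lay below the control mean than above it, and the control arrays differed from each other. Of the 42 genes, 26 were lower (61.9%, against 40.8% of all genes) and the median difference was -0.13 log2, against 0.06 over all genes. Both day 3 arrays lay below both day 0 arrays for 14 genes (16.1% of all genes did so) and above them for 3 (28.2% of all genes). At an unadjusted p under 0.05, 4 were lower (4.61% of all genes) and 0 higher (6.38% of all genes), and the lowest adjusted p among collagen genes was 0.427. Without day 3 replicate 2 the median was -0.15, and with single arrays left out in turn it ran from -0.26 to -0.04. The collagen genes had medians of -0.06 and 0.06 on the day 0 arrays and -0.15 and -0.05 on the day 3 arrays. These overlapped, with day 0 replicate 1 below day 3 replicate 2. Of the 42 genes, 11 and 30 were above 0 on the day 0 arrays, and 7 and 12 on the day 3 arrays. Several marker lists of other cells also lay lower at day 3. Lower were 15 of 19 lens genes (median -0.65) and 12 of 13 genes of pigment epithelium and melanocytes (-0.45). So were 12 of 15 genes of corneal and surface epithelium (-1.33) and 9 of 12 Muller glia and astrocyte genes (-0.28). Of rod photoreceptor genes 10 of 11 were lower (-0.39), and of pericyte and smooth muscle genes 8 of 10 (-0.30). Other lists did not lie lower. Microglia and macrophage genes were higher in 14 of 15 cases (0.90) and endothelial genes in 7 of 12 (0.02). Of 10 corneal stroma and fibroblast genes, 5 were higher and 5 lower (0.02). The part of these lists in the collagen values was not tested.

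The largest difference at day 3 was that of Col4a1, at -1.45 ± 0.53 log2 (SE, 2 arrays each; 0.367-fold, adjusted p = 0.429). It was the 1 collagen gene that differed by 2-fold or more (0.868% of all genes did). Of the type IV genes, 5 of 6 were lower, with a median of -0.66, and the others ran from -0.73 in Col4a3 and Col4a2 to 0.03 in Col4a6. Without day 0 replicate 1 the Col4a1 difference was -2.24, and without day 0 replicate 2 it was -0.65. The count at 2-fold also rested on single arrays. Without day 0 replicate 1 it was 4 (Col4a1, Col4a2, Col4a5 and Col6a3), without day 0 replicate 2 it was 0, without day 3 replicate 1 it was 3 (Col4a1, Col4a3 and Col9a1), and without day 3 replicate 2 it was 4 (Col4a1, Col4a2, Col6a1 and Col23a1). Over all genes, 2-fold was reached by 1.92%, 0.588%, 1.63% and 3.52% in the same 4 settings, in that order.

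The vitreous type fibrils are built from Col2a1, which gives the core of the fibril, Col11a1, which sits inside it, and type IX collagen on its surface. Col11a1 was at -0.34 and -0.47 on the day 3 arrays and at 0.16 and 0.17 on the day 0 arrays, a difference of -0.57 ± 0.15 log2 (adjusted p = 0.427). Col2a1 was at -0.84 and -0.28 on day 3 and at -0.00 and 0.12 on day 0, a difference of -0.61 ± 0.20 log2 (adjusted p = 0.427). For both genes the day 3 arrays lay below the controls without overlap. Col9a1 was at -0.07 and -0.95 on day 3, against -0.18 and 0.34 on day 0, with the controls overlapped by 1 array (-0.59 ± 0.36 log2, adjusted p = 0.547). Its low value was again on day 3 replicate 2.

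Col6a1 and Col6a3 encode chains of the beaded filaments of type VI collagen, which tie basement membranes to the matrix around them. Col6a1 was at -1.04 and -0.03 on day 3 and at -0.01 and 0.45 on day 0 (-0.75 ± 0.35 log2, adjusted p = 0.474). Col6a3 was at -0.61 and -0.02 on day 3 and at -0.28 and 0.95 on day 0 (-0.65 ± 0.39 log2, adjusted p = 0.539). In both, day 3 replicate 1 was the lower array. The Col6a3 difference ran from -1.26 without day 0 replicate 1 to -0.04 without day 0 replicate 2. The other type VI genes differed little, with Col6a2, Col6a4 and Col6a5 between 0.06 and 0.09 above day 0.

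Col23a1, a transmembrane collagen, was at -1.10 and -0.05 on day 3 and at 0.07 and 0.10 on day 0 (-0.66 ± 0.32 log2, adjusted p = 0.480). Its 3 probe sets were at -2.05, -0.78 and -0.47 on day 3 replicate 1, and their differences from day 0 were -0.94, -0.89 and -0.14. Without day 3 replicate 1 the gene differed by -0.13, and without day 3 replicate 2 by -1.18. Col7a1, which anchors stratified epithelia, was at -0.82 and 0.00 on day 3 and at 0.07 and 0.20 on day 0 (-0.54 ± 0.27 log2, adjusted p = 0.490). Col17a1, a transmembrane collagen of the hemidesmosomes of basal epithelial cells, was at -0.38 and 0.03 on day 3 and at -0.03 and 0.78 on day 0 (-0.55 ± 0.27 log2, adjusted p = 0.489). The 15 measured genes of corneal and surface epithelium had medians of -0.62 and -0.41 on the day 3 arrays and 0.31 and 0.89 on the day 0 arrays, and the part of that tissue in the Col17a1 and Col7a1 values was not tested.

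**Figure D3:**
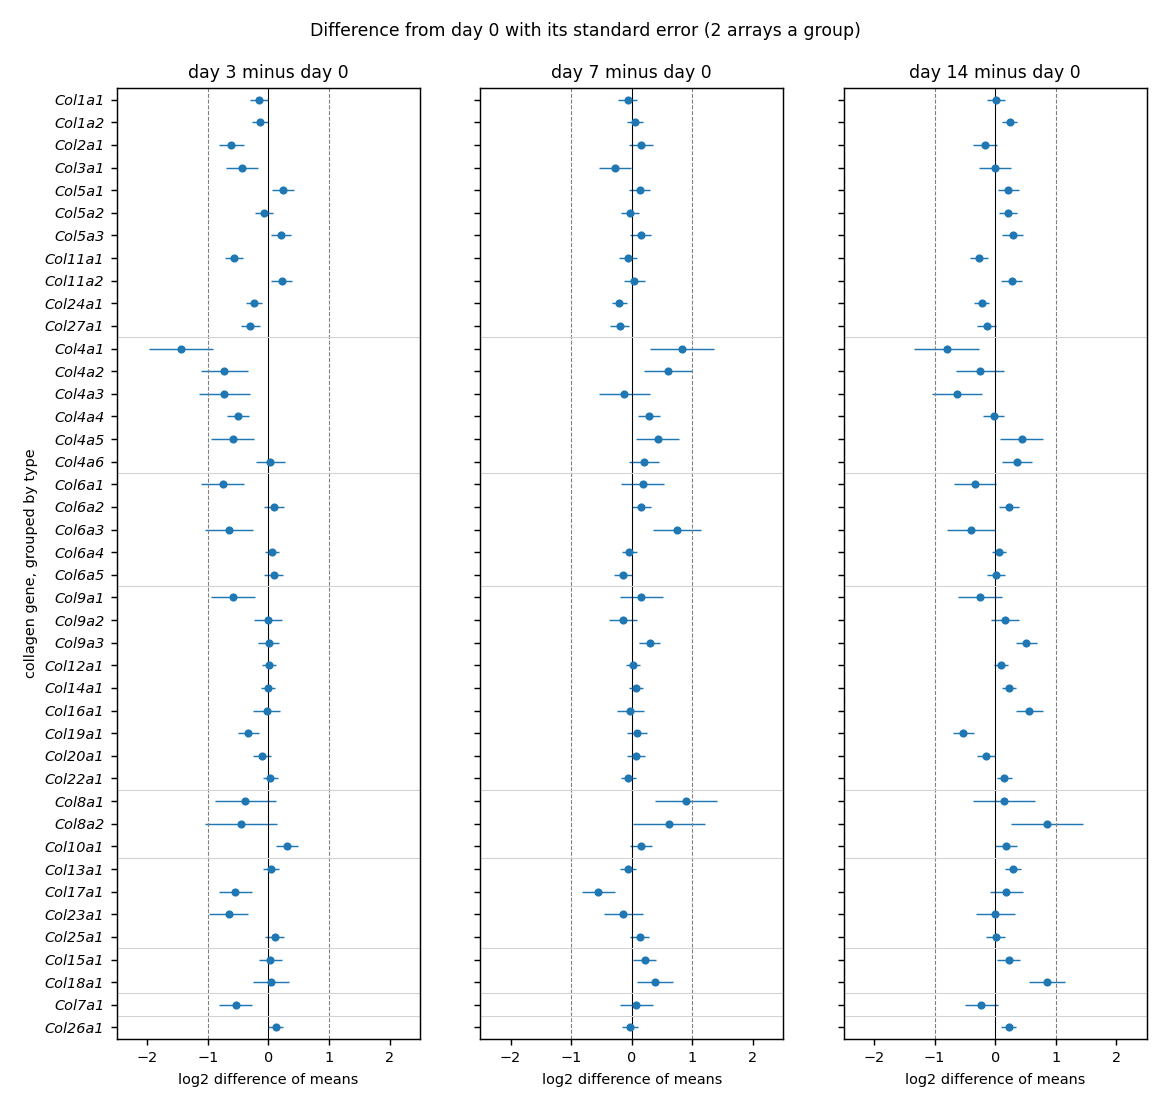
Log2 difference of the mean of 2 arrays from the mean of the 2 day 0 arrays (horizontal axis) with its standard error from limma, for the 42 collagen genes (rows, by type) at 3, 7 and 14 days, with dashed lines at 2-fold. At day 3 Col4a1 lies past 2-fold at -1.45, at day 7 and day 14 no gene does, and the largest differences there are 0.90 in Col8a1 and 0.86 in Col8a2.

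At day 7 the differences from day 0 were mostly small. Of the 42 genes, 26 were higher (61.9%, against 48.1% of all genes), with a median of 0.07 log2 against -0.01 over all genes (-0.03 in collagen genes without day 0 replicate 1), and 0 differed by 2-fold (0.258% of all genes). Both day 7 arrays lay above both controls for 2 genes, Col4a4 and Col9a3 (12.1% of all genes did so), and below them for 5 (13.1%). None reached an unadjusted p under 0.05 (0.797% of all genes), and every adjusted p was 1.0.

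The largest day 7 difference belonged to Col8a1, whose chain forms, with that of Col8a2, the hexagonal lattice of Descemet's membrane in the cornea and occurs in vessel walls. Col8a1 was at -0.03 and 1.80 on day 7 and at -0.05 and 0.03 on day 0 (0.90 ± 0.51 log2, adjusted p = 1.0). Col8a2 was at -0.36 and 1.58 on day 7 and at 0.23 and -0.23 on day 0 (0.61 ± 0.59 log2, adjusted p = 1.0). In each gene, replicate 2 alone was high and replicate 1 lay within or below the controls. All 3 probe sets of Col8a1 were highest on that array, at 0.94, 2.10 and 2.37. Without it, the differences were -0.02 in Col8a1 and -0.36 in Col8a2. Some genes of the pigment epithelium, picked here after their values were seen, were high on the same array. Rpe65 and Lrat, enzymes of the visual cycle, were at -0.68 and 1.94 and at -0.55 and 2.37 on the day 7 arrays, and Rdh5, Rgr and Ttr at 2.02, 2.08 and 1.44 on replicate 2. Other genes of the list, among them pigment genes, were below 0 on replicate 2. These were Mlana at -1.11, Tyrp1 at -0.54, Pmel at -0.50, Dct at -0.39 and Slc45a2 at -0.19. Of the whole list of 13 genes, 8 were above 0 on replicate 2 and 5 on replicate 1, with medians of 0.24 and -0.15. The part of this list in the Col8a1 and Col8a2 values was not tested.

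Also among the largest day 7 differences were those of Col4a1 (0.83 ± 0.53 log2), Col6a3 (0.74 ± 0.39 log2) and Col4a2 (0.60 ± 0.40 log2). Col6a3 was at 1.27 and 0.89 on day 7 and at -0.28 and 0.95 on day 0, so that the higher control lay between the day 7 arrays, as it did for Col4a1 and Col4a2. Lens genes were high on the same arrays. All 19 were above 0 on both day 7 arrays and 15 were on day 0 replicate 2, whereas 0 were on day 0 replicate 1 and on day 3 replicate 1. They were also above 0 in 17 cases on day 14 replicate 1, where Col4a1 stood at 0.07. Their medians were 1.88 and 3.30 on day 7 and -1.54 and 1.26 on day 0, and how far they bear on the Col4a1, Col4a2, Col6a3, Col8a1 and Col8a2 values was not tested.

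Col17a1 had the largest negative difference at day 7. It was at -0.26 and -0.10 on the day 7 arrays and at -0.03 and 0.78 on the day 0 arrays (-0.55 ± 0.27 log2, adjusted p = 1.0). Corneal and surface epithelial genes had medians of -0.10 and -0.41 on day 7, below 0.31 and 0.89 on day 0.

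**Figure D4:**
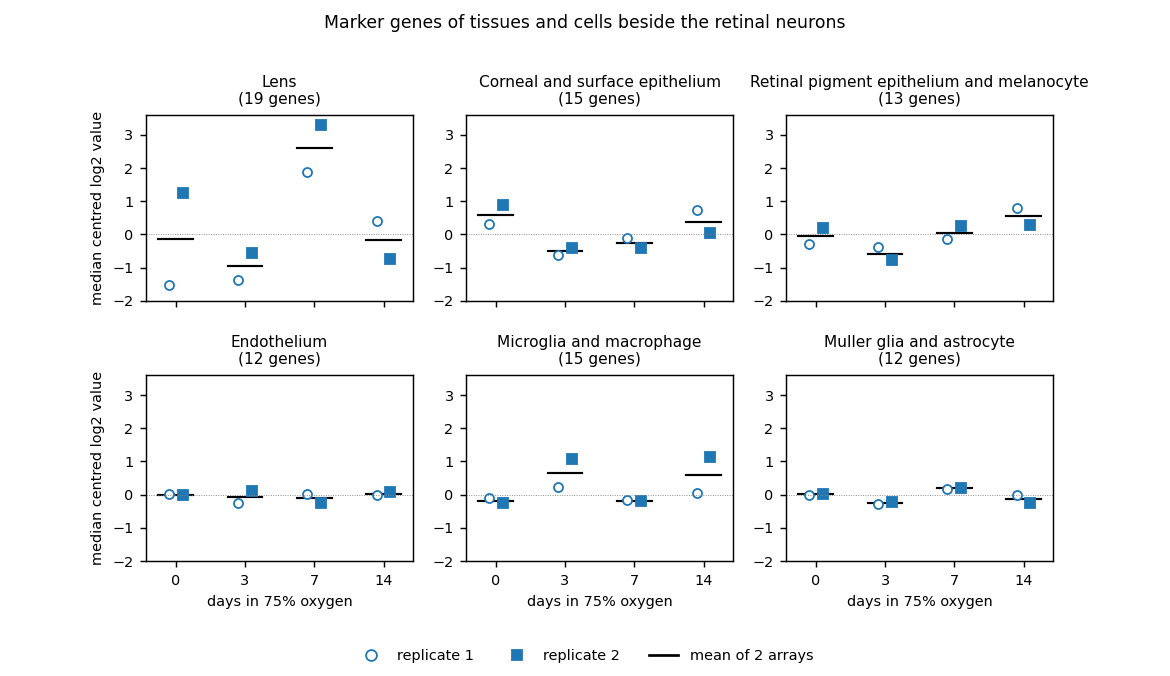
Median centred log2 value (vertical axis) of the measured genes of 6 marker lists by days in 75% oxygen (horizontal axis), with open circles for replicate 1, filled squares for replicate 2 and bars for the mean of 2 arrays. The lens list runs from -1.54 to 3.30 and differs between the arrays of 1 time, whereas the endothelial list stays between -0.25 and 0.13.

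At day 14 the collagen genes as a group stood close to all genes. Of the 42 genes, 27 were higher than at day 0 (64.3%, against 64.0% of all genes), and the median difference was 0.12 log2 against 0.08 over all genes. Both day 14 arrays lay above both controls for 15 genes (33.5% of all genes did so) and below them for 4 (15.2%). At an unadjusted p under 0.05, 3 were higher (4.45% of all genes) and 1 was lower (3.56%), 0 differed by 2-fold (0.682%), and the lowest adjusted p was 0.614. Leaving out day 14 replicate 1 gave a median of 0.13, and leaving out day 14 replicate 2 gave 0.07.

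Col18a1, a basement membrane collagen whose cleaved end is the vessel growth inhibitor endostatin, was at 0.42 and 0.52 on day 14 and at -0.90 and 0.13 on day 0 (0.85 ± 0.30 log2, 1.81-fold, adjusted p = 0.615). Both of its probe sets gave a similar difference, 0.83 and 0.88. The day 14 arrays lay above every other array, but most of the distance came from day 0 replicate 1. Without that array the difference was 0.34, and without day 0 replicate 2 it was 1.37. The other multiplexin, Col15a1, was at -0.11 and 0.25 on day 14 and at -0.37 and 0.06 on day 0, which overlapped.

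Col8a2 was at 1.29 and 0.42 on day 14 and at 0.23 and -0.23 on day 0 (0.86 ± 0.59 log2, adjusted p = 0.674), while its partner chain Col8a1 was at 0.23 and 0.04 on day 14 (0.14 ± 0.51 log2, adjusted p = 0.934). In both genes the day 14 arrays lay above the controls. The 13 genes of retinal pigment epithelium and melanocytes were above 0 on day 14 replicate 1 in 13 of 13 cases and on replicate 2 in 11, with medians of 0.81 and 0.29 on day 14 and -0.29 and 0.18 on day 0, and their part in the Col8a2 and Col18a1 values was not tested.

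The fibril-associated chains held several of the day 14 differences, with 6 of 9 above both controls on both arrays (33.5% of all genes were). Col16a1, found near fibrils and basement membranes, was at 0.26 and 0.65 on day 14 and at -0.35 and 0.14 on day 0 (0.56 ± 0.23 log2, adjusted p = 0.621). Col9a3, a chain of type IX collagen, was at 0.33 and 0.41 on day 14 and at -0.07 and -0.22 on day 0 (0.51 ± 0.17 log2, adjusted p = 0.615). The other type IX chains differed less. Col9a2 differed by 0.16 ± 0.23 log2 and Col9a1 by -0.25 ± 0.36 log2, the arrays of Col9a1 being at 0.24 and -0.56.

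Col19a1, a fibril-associated chain of basement membrane zones, ran the other way. It was at -0.21 and -0.54 on day 14 and at 0.24 and 0.06 on day 0, a difference of -0.53 ± 0.17 log2 (adjusted p = 0.614). Its 3 probe sets differed by -0.88 to -0.18, so that all were lower but by unequal amounts. One of them was at 0.11 and -0.47 on day 14 and at 0.00 and -0.00 on day 0. The lowest values of Col19a1 were on day 14 replicate 2 and, at -0.32, on day 3 replicate 2. These arrays had the large 3′ to 5′ differences, whose part in this was not tested. Col11a1 was at -0.02 and -0.20 on day 14 and at 0.16 and 0.17 on day 0 (-0.27 ± 0.15 log2, adjusted p = 0.638), with 1 probe set at -0.49 and the other at -0.05. The day 14 arrays were below the controls in both genes.

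Among type IV genes at day 14, Col4a1 had the largest difference, -0.80 ± 0.53 log2 (adjusted p = 0.666), and its arrays overlapped the controls. Without day 0 replicate 1 it was -1.60, and without day 0 replicate 2 it was -0.01. Col4a3 differed by -0.63 ± 0.42 log2 (adjusted p = 0.666), and its probe sets disagreed. One of the pair was at 0.22 and -1.83 on day 14 and at -0.01 and 0.26 on day 0, whereas the other was at 0.23 and -0.23 on day 14 and at 0.40 and 0.24 on day 0. The low values of the first were on day 14 replicate 2 and, at -1.45, on day 3 replicate 2. Without day 14 replicate 2 the Col4a3 difference was 0.00.

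**Figure D5:**
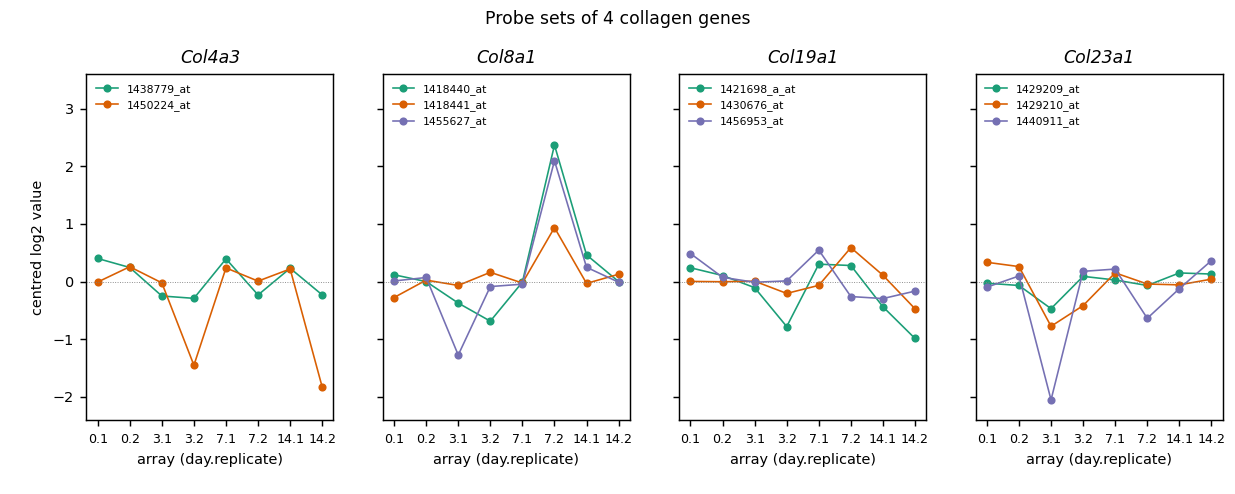
Centred log2 values (vertical axis) of each probe set of Col4a3, Col8a1, Col19a1 and Col23a1 on the 8 arrays (horizontal axis, day and replicate). For Col8a1 all 3 probe sets peak on day 7 replicate 2, whereas for Col4a3 and Col23a1 only 1 probe set reaches -1.83 and -2.05.

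Between the exposed times, most collagen genes were lower at day 3 than at day 7, and most were lower than at day 14. Their medians were -0.15 and -0.05 on the day 3 arrays, 0.01 and 0.00 on day 7, and 0.05 and 0.14 on day 14. Between day 7 and day 3, 31 of 42 collagen genes were higher at day 7 (73.8%, against 40.3% of all genes). Both day 7 arrays lay above both day 3 arrays for 17 genes (40.5%, against 15.6% of all genes) and below them for 3 (28.0% of all genes). An unadjusted p under 0.05 was reached by 10, all higher (5.65% of all genes), and 2-fold by 6 (1.8% of all genes), and the lowest adjusted p was 0.285, which was also the lowest over all genes.

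The 6 were Col4a1 at 2.27 ± 0.53 log2 (4.84-fold), Col6a3 at 1.39 ± 0.39, Col4a2 at 1.32 ± 0.40, Col8a1 at 1.27 ± 0.51, Col8a2 at 1.07 ± 0.59 and Col4a5 at 1.02 ± 0.35 (SE, 2 arrays each; adjusted p between 0.285 and 0.443). All 6 type IV genes were higher at day 7, with a median of 0.90, and 5 of them without overlap of the arrays. Col2a1 was higher by 0.77 ± 0.20 and Col4a4 by 0.79 ± 0.18 (adjusted p = 0.285 for each). Without day 3 replicate 2 these were the 2 collagen genes past the threshold, with differences of 1.05 and 1.03 and adjusted p of 0.0431 and 0.0415. That setting passed 521 of the 18193 genes (2.86%), and it leaves day 3 with 1 array, which is assumed to vary like the arrays of the other times. All 19 lens genes were higher at day 7 than at day 3 as well, by a median of 3.93, and 12 of 13 genes of pigment epithelium and melanocytes, by a median of 1.19. Their part in the collagen values was not tested.

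Between day 14 and day 3, 36 of 42 collagen genes were higher at day 14 (85.7%, against 53.4% of all genes). Both day 14 arrays lay above both day 3 arrays for 21 genes (14.4% of all genes) and below them for 0 (11.7% of all genes). An unadjusted p under 0.05 was reached by 7, all higher (2.01% of all genes), and 2-fold by Col8a2 (1.31 ± 0.59 log2) and Col4a5 (1.03 ± 0.35 log2; 0.379% of all genes), with an adjusted p of 0.983 or more in all. This comparison shares its day 3 arrays with that of day 7 against day 3, and day 3 replicate 1 held the lowest value of 16 collagen genes. Without day 3 replicate 2, 2-fold was reached by 3.01% of all genes, and the collagen genes at 2-fold were not counted in that setting. Higher at day 14 as well were 13 of 13 genes of pigment epithelium and melanocytes (median 0.99), 18 of 19 lens genes (0.77) and 13 of 15 genes of corneal and surface epithelium (1.12), whose part was not tested.

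Between day 14 and day 7, collagen genes went in both directions. Of the 42 genes, 27 were higher at day 14 (64.3%, the same share as of all genes). Both day 14 arrays lay above both day 7 arrays for 11 (34.5% of all genes) and below them for 9 (14.4% of all genes). Differences of 2-fold or more were those of Col4a1 (-1.63 ± 0.53 log2, adjusted p = 0.410) and Col6a3 (-1.15 ± 0.39 log2, adjusted p = 0.413), both lower at day 14 (1.33% of all genes passed 2-fold). All 19 lens genes were lower at day 14 too, with a median of -2.51 and 17 of them at 2-fold, and their part in the Col4a1 and Col6a3 values was not tested. In the test over all 4 times, 6 collagen genes had an unadjusted p under 0.05 (8.99% of all genes), and the lowest adjusted p was 0.541.

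Several collagen genes of fibrils differed less between arrays. Col1a1 and Col1a2, which make the type I collagen of sclera and stroma, stayed between -0.12 and 0.24 and between -0.29 and 0.20 over the 8 arrays. Col3a1, which accompanies type I collagen, differed more, with a range of 0.83 against medians of 0.70 in collagen genes and 0.57 in all genes. It was high on day 0 replicate 2 at 0.67 and on day 14 replicate 2 at 0.51, and lay between -0.16 and 0.04 elsewhere. The type V genes, which set fibril diameter, had ranges of 0.42 in Col5a3, 0.50 in Col5a2 and 0.53 in Col5a1. In all, 15 of the 42 genes had a range under 0.5, a smaller share than the 7385 of all 18193 genes.

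Genes that act on collagen were described by lists. Of 16 measured enzymes and chaperones that fold and modify procollagen, 13 were lower at day 3 (40.8% of all genes were; median -0.24 log2, against 0.06 over all genes), and 0 reached an unadjusted p under 0.05 (11.0% of all genes). Plod2, a lysyl hydroxylase, differed by -0.61 ± 0.27 and P3h3, a prolyl hydroxylase, by -0.60 ± 0.31 (adjusted p of 0.462 and 0.494). P4ha1 encodes the catalytic subunit of the prolyl hydroxylase that stabilises the helix. It was at -0.13 and -0.80 on day 14 and at 0.36 and 0.28 on day 0 (-0.79 ± 0.35 log2, adjusted p = 0.627). On day 3 it was at 0.02 and -0.94. Its low values were thus on the arrays with the large 3′ to 5′ differences, whose part was not tested. By day 14, 11 of the 16 were higher (64.0% of all genes) and 5 lower, with a median of 0.07.

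Of 10 genes of procollagen processing and cross-linking, 8 were higher at day 14 (64.0% of all genes), with a median of 0.12. Loxl1, a lysyl oxidase, was at 0.09 and 0.51 on day 14 and at -0.34 and -0.36 on day 0 (0.65 ± 0.18 log2, adjusted p = 0.595). Pcolce, which enhances the trimming of procollagen, differed by 1.16 ± 0.58 log2 (adjusted p = 0.627). Both genes lay above the controls on both arrays.

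Of 17 proteoglycans and other proteins that bind fibrils, 14 were higher at day 14 (64.0% of all genes were; median 0.20) and 2 reached an unadjusted p under 0.05 (8.01% of all genes). Fmod, a proteoglycan of fibrils, was at 0.52 and 1.13 on day 14 and at -0.56 and -0.04 on day 0 (1.12 ± 0.33 log2, adjusted p = 0.613). Optc, opticin of the vitreous, was at 0.82 and 0.29 on day 14 and at -1.52 and 0.01 on day 0 (1.31 ± 0.52 log2, adjusted p = 0.621). As for Col18a1, day 0 replicate 1 was the lowest array of Optc.

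Of 15 basement membrane partners of collagen IV, 7 were lower and 8 higher at day 3, with a median of 0.02. The nidogens, which bridge laminin and collagen IV, were among the lower ones, Nid1 by -0.45 ± 0.23 and Nid2 by -0.53 ± 0.21 (adjusted p of 0.497 and 0.434). Nid1 was high on the arrays on which Col4a1 was high, at 0.76 and 0.51 on day 7 and 0.56 on day 0 replicate 2. Nid2 was at -0.04 and 0.21 on day 7 and 0.32 on day 0 replicate 2. The whole list had medians of -0.005 and 0.016 on day 7 and 0.02 on day 0 replicate 2. Lamb2, a laminin chain, differed by 0.45 ± 0.30 log2 at day 14 (adjusted p = 0.666).

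Of 12 collagenases, other proteases and their inhibitors, 8 were higher at day 3 (59.2% of all genes) and 8 at day 14 (64.0%). Timp1, an inhibitor of matrix metalloproteinases, was at 0.10 and 2.65 on day 14 and at -0.36 and -0.31 on day 0 (1.71 ± 1.04 log2, adjusted p = 0.658), and at 2.80 on day 3 replicate 2. Its high arrays were those with the large 3′ to 5′ differences, on which the 15 genes of microglia and macrophages also had their highest medians, 1.08 and 1.13. Timp3, the inhibitor held in Bruch's membrane, differed by -0.97 ± 0.65 log2 at day 3 (adjusted p = 0.577), with its highest value, 2.24, on day 7 replicate 2.

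Of 8 collagen receptors, 6 were higher at day 3 (59.2% of all genes) and 6 at day 14 (64.0%), with medians of 0.12 and 0.06. Gp6, the platelet receptor for collagen, differed by 0.58 ± 0.17 log2 at day 14 (adjusted p = 0.613), Ddr2, a receptor kinase, by -0.35 ± 0.25 at day 3 (adjusted p = 0.592) and Itga1, an integrin chain, by 0.22 ± 0.12 at day 3 (adjusted p = 0.506). No gene of these lists passed an adjusted p of 0.05 at any time. Endothelial genes, the source of much collagen IV in vessels, had medians between -0.25 and 0.13 over the arrays. Those of corneal stroma and fibroblast genes lay between -0.07 and 0.25. At day 14 all 10 of the latter were higher than at day 0 (64.0% of all genes were), by a median of 0.18. Their part in the collagen values was not tested.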

How the data were processed

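The deposited log2 values of 8 arrays were made by the authors with RMA, per the labels (version not stated). In the file, every one of the 45101 probe sets has a median of 0 over the arrays (within 1e-06), a centring that the labels and the methods of the study do not mention. Those methods describe other software, whose output was not used here. The files give no intensity, so no filter on low signal was applied, and the number of arrays limits the precision.

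Control probe sets (64) were set aside. GEO's platform annotation gave 1 gene symbol to 34945 of the other 45037 probe sets, several to 932 and none to 9160, and the mean over the probe sets of a symbol stood for a gene. Arrays were grouped by the time in their titles. For all 18193 genes, 4 group means were fitted (limma 3.58.1 under R 4.3.3, functions lmFit and eBayes, 3.12 prior degrees of freedom). Tests were two-sided, with Benjamini-Hochberg adjustment over all genes and a threshold of 0.05. The code was tested on simulated data. Counts and sequence matches used Python 3.11.15 (pandas 2.3.3, numpy 2.4.6), and figures matplotlib 3.10.9. Gene positions and promoter sequences are RefSeq's (GRCm38.p6).

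The members and gene lists were chosen with earlier results of these data known. Genes described by array are the 6 with the largest difference from day 0 at each time, the type IV chains, the collagens the study names, and the 3 whose probe sets differ most. Of each other list, the 3 genes with the largest difference from day 0 were eligible to be named. Col2a1, Col3a1, Col7a1, Col9a2, Col9a3, Col15a1 and the genes with little movement were added after their values were seen. Alternatives covered scaling (quantile normalization again, here of the centred values, or array medians subtracted). For the model they covered a replicate block, robust eBayes, separate fits for each comparison and a one-way analysis of variance. They also covered the probe sets used, linear means, and the removal of arrays.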

Additional observations from a re-analysis of the deposited data

Results flagged for a closer look

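For 4 collagen genes, both arrays of one exposed time lay above both day 0 arrays and both arrays of another lay below them (9.52%, against 7.57% of all genes, 1377 of 18193). Col4a4 differed from day 0 by 0.29 at day 7 and by -0.50 at day 3, and the difference between these times had an adjusted p of 0.285 (limma). Col8a1 differed by 0.14 at day 14 and by -0.38 at day 3 (adjusted p of the difference 0.983). Col8a2 differed by 0.86 at day 14 and by -0.46 at day 3 (adjusted p of the difference 0.983). Col9a2 differed by 0.16 at day 14 and by -0.14 at day 7 (adjusted p of the difference 0.594). No difference between the times passed the threshold, and all comparisons share the day 0 arrays.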

How the results depend on the processing

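The number of collagen genes past the adjusted p stayed at 0 in each comparison with quantile normalization applied again, array medians subtracted, robust eBayes, separate fits for each comparison, other choices of probe set and the removal of single arrays, except between day 7 and day 3, where leaving out 1 array gave 0 to 2. The 2 came without day 3 replicate 2, which passed 2.86% of all genes there and rests on 1 day 3 array assumed to vary like the others. Unadjusted, a one-way analysis of variance passed 1 gene at day 3, 1 at day 7 and 3 at day 14 against day 0. It passed 3 in each comparison between later times. Of all genes it passed 7.17%, 2.89% and 7.23% at days 3, 7 and 14 against day 0, and 3.2% to 6.76% between later times. After Benjamini-Hochberg it passed 0. It was fitted to the compared times alone and to all genes. The analysis of variance in the study used an error model across genes, and only genes already at 2-fold. These counts are therefore not comparable with those of the study. Titles number the arrays of a time 1 and 2 but do not say that the numbers mark pairs, and deviations of same-numbered arrays correlated between -0.30 and 0.46 over the pairs of times. With the replicate number as a block, and with the numbers of day 3 and day 14 crossed (chosen after seeing the data), the counts were 0 in all comparisons.

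Leaving out 1 array in turn gave medians of the collagen genes from -0.257 to -0.0414 at day 3, -0.0282 to 0.124 at day 7 and 0.0215 to 0.185 at day 14. Genes at 2-fold then numbered 0 to 4, 0 to 3 and 0 to 3. At day 7 there were 3 such genes once day 0 replicate 2 was left out (0.517% of all genes). There were 2 once day 7 replicate 1 was left out (1.07% of all genes) and 1 once day 7 replicate 2 was (0.198%). At day 14 there were 3 when day 0 replicate 1 was left out (1.45% of all genes) and 1 when day 0 replicate 2 was (0.709%). There was also 1 without day 14 replicate 1 (2.75% of all genes) and 1 without day 14 replicate 2 (0.335%). With the probe set of the largest SD the day 3 median was -0.29 and 1 gene (Col8a1) reached 2-fold at day 7 (0.517% of all genes). Linear means gave 1 at day 7 (0.324% of all genes) and 1 at day 14 (0.698%). Quantile normalization of the centred values gave 2 at day 14, Col18a1 at 1.18 and Col8a2 at 1.15 (1.1% of all genes). It gives every array the same distribution of values. Before it, the SD ran from 0.19 on day 14 replicate 1 to 0.41 on day 7 replicate 2. Leaving out day 3 replicate 2 together with day 14 replicate 2 gave 4 at day 3 (3.52% of all genes) and 1 at day 14 (0.335%). Differences turned in sign without 1 array. Col8a1 at day 7 ran from -0.0182 to 1.81, and Col8a2 from -0.362 to 1.58, both negative only when day 7 replicate 2 was left out. Col4a3 at day 14 ran from -1.25 to 0.0013, positive only when day 14 replicate 2 was left out, alone or with day 3 replicate 2. The causes were not tested beyond what leaving out an array shows.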
